A study of Cyprinus carpio with 12 samples.

Results

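Axon guidance genes encode the secreted and membrane-bound cues, the receptors and the cytoplasmic proteins by which a growing nerve fibre is turned towards or away from a target. Several netrins are read by DCC and UNC5 receptors, Slits by Robo receptors, and semaphorins by plexins and neuropilins. Receptors pass the signal to cytoskeletal effectors such as the collapsin response mediator proteins. Neither sperm nor a mid-blastula embryo contains growing axons. No expression was measured in these lists, so the labelled tissues could not be checked against marker genes.

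Described here are 6 of these genes in the common carp, *Cyprinus carpio*. They comprise the netrin receptor gene unc5db, the semaphorin genes sema3aa and sema6e, the plexin gene plxna3, the Slit receptor gene robo2 and the collapsin response mediator gene dpysl5a. The genes were selected on the differences between group levels in the same lists that are described below, so the presence of a listed region in each of them is not a finding and no test was run on them. They are 6 of the 55089 genes placed on the 50 chromosomes of the assembly. Their bodies with 1 kb flanks held 25 of the 41022 regions listed for sperm and 27 of the 39021 regions listed for embryos. Both deposited lists hold more regions than the study reports for the same comparison, so they are not the set that it counted.

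Whole-genome bisulphite sequencing, which reads unmethylated cytosine as thymine, was applied to 12 libraries in 4 groups of 3. The groups were fresh sperm (day 0 after stripping), sperm kept in extender on ice until day 14, mid-blastula embryos from fresh sperm, and mid-blastula embryos from the stored sperm. All groups came from 5-year-old males injected with carp pituitary, the eggs came from a single female, and each embryo library was a pool of embryos. Fresh and stored sperm were taken from the same males, so the libraries of both groups share their donors, but the labels do not say which libraries share a male. Males were stripped more than once, and it is not stated which stripping gave which sample, so storage and the date of stripping or fertilisation cannot be told apart.

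For each region the deposited lists hold 1 mean level per group and the number of CpG sites. They hold no value per library and no read depth, so no level below carries an error and no difference could be set against the spread between replicates. A level is the share of methylated reads over many cells, and a change in a few cells cannot be told apart from a smaller change in many. Only windows that passed a threshold are listed, and in the files each holds at least 5 CpGs and differs by at least 10.0 percentage points. A 2-fold change, which the study's methods name, was met by 3.94% of sperm and 4.20% of embryo regions. A gene without a region is therefore not shown to be unchanged. Coordinates are those of the lists on the assembly ASM1834038v1. The gene table gives no strand or exons, so positions along a gene run from its lower-coordinate end and a region cannot be placed in an exon, an intron or a promoter.

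In the 6 genes, as in the whole lists, most listed regions were highly methylated in both groups and differed by little more than the threshold. In sperm 15 regions had a higher and 10 a lower level in the stored group, a share of higher regions of 60.0% (exact 95% interval 38.7 to 78.9, counting error only) against 62.3% of all placed sperm regions. In embryos the counts were 13 and 14, a share of 48.1% (28.7 to 68.1) against 50.4%. Both intervals treat regions as independent draws, although regions share genes and all passed the threshold of the lists. The intervals therefore measure no spread between genes or animals, and nothing is inferred from them. The median absolute difference was 12.3 points in sperm and 12.9 points in embryos, beside 12.35 and 12.4 points over all placed regions of the same lists. A difference of at least 20 points was listed in 2 sperm regions and 1 embryo region, which lay in unc5db and plxna3. The share of all placed regions with such a difference is not given here, so nothing is read from this count.

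The levels near full methylation dominated in both directions. In sperm the median levels of the higher regions were 84.8% (fresh) and 96.8% (stored), and those of the lower regions 97.1% and 86.2%. Values below are given in this order, fresh group first. In embryos the corresponding medians were 82.1% and 95.3% for higher regions and 97.0% and 84.7% for lower regions. The greater of the 2 group levels was at least 95% in 16 of 25 sperm regions (64.0%, against 50.5% of all placed sperm regions) and in 18 of 27 embryo regions (66.7%, against 49.4%). Both group levels were at least 60% in 23 of 25 sperm and 23 of 27 embryo regions, beside 82.3% and 81.3% of all placed regions. A level under 60% in either group was thus listed in 2 sperm and 4 embryo regions, all in unc5db apart from 1 embryo region in sema6e. That sema6e region was also the only one of the 52 that met a 2-fold change.

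**Figure D1:**
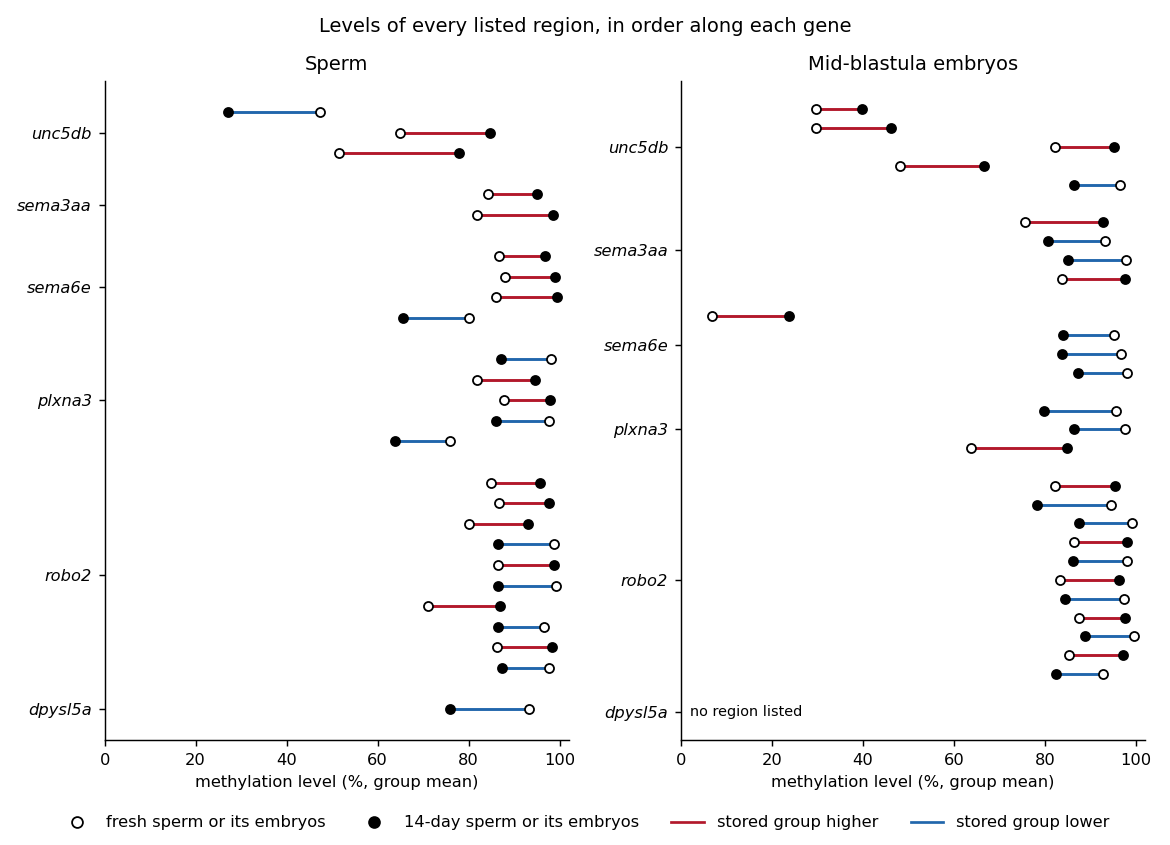
Methylation level (%, authors' group mean) of every listed region in the 6 genes, from the lower-coordinate end downwards within each gene, for sperm (left) and mid-blastula embryos (right). Open circles show the fresh group, filled circles the stored group, and red or blue lines a higher or lower level in the stored group. Most lines lie between 80% and 100%, whereas unc5db holds several below 80% and sema6e an embryo region at 6.82% and 23.9%.

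Regions were small. The sperm regions held a median of 5 CpGs over a median of 90 bp, and 18 of 25 held exactly 5. The embryo regions held a median of 7 CpGs over 114 bp, and 3 held 10 or more, the greatest number being 11 CpGs in sema3aa and in sema6e. The median over all placed regions was 5 CpGs in each list. Listed regions covered between 0.166% (unc5db in sperm) and 0.661% (sema3aa in embryos) of a gene's body wherever a gene held any. Nothing was listed for the remainder of the gene.

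Of the 6 genes, 6 held a sperm region against a background of 25.3% of placed genes, and 5 held an embryo region against 24.0%. A higher region was present in 5 genes in sperm (background 18.7%) and in 5 in embryos (14.8%), and a lower region in 5 genes in sperm (11.9%) and in 5 in embryos (14.7%). Regions of both lists occurred in 5 of the 6 genes, against 12.6% of placed genes. The choice of the genes rests on these lists, and 5 of them are over 100 kb long, so nothing is read from these counts. All regions lay within gene bodies and 0 in the 1 kb flanks, and none lay in another annotated gene. The listed region closest to a gene end had its midpoint 1.65 kb inside unc5db (embryos, 96.6% and 86.4%), and the closest left out was 4.79 kb beyond the same end (sperm, 26.8% and 12.2%).

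**Figure D2:**
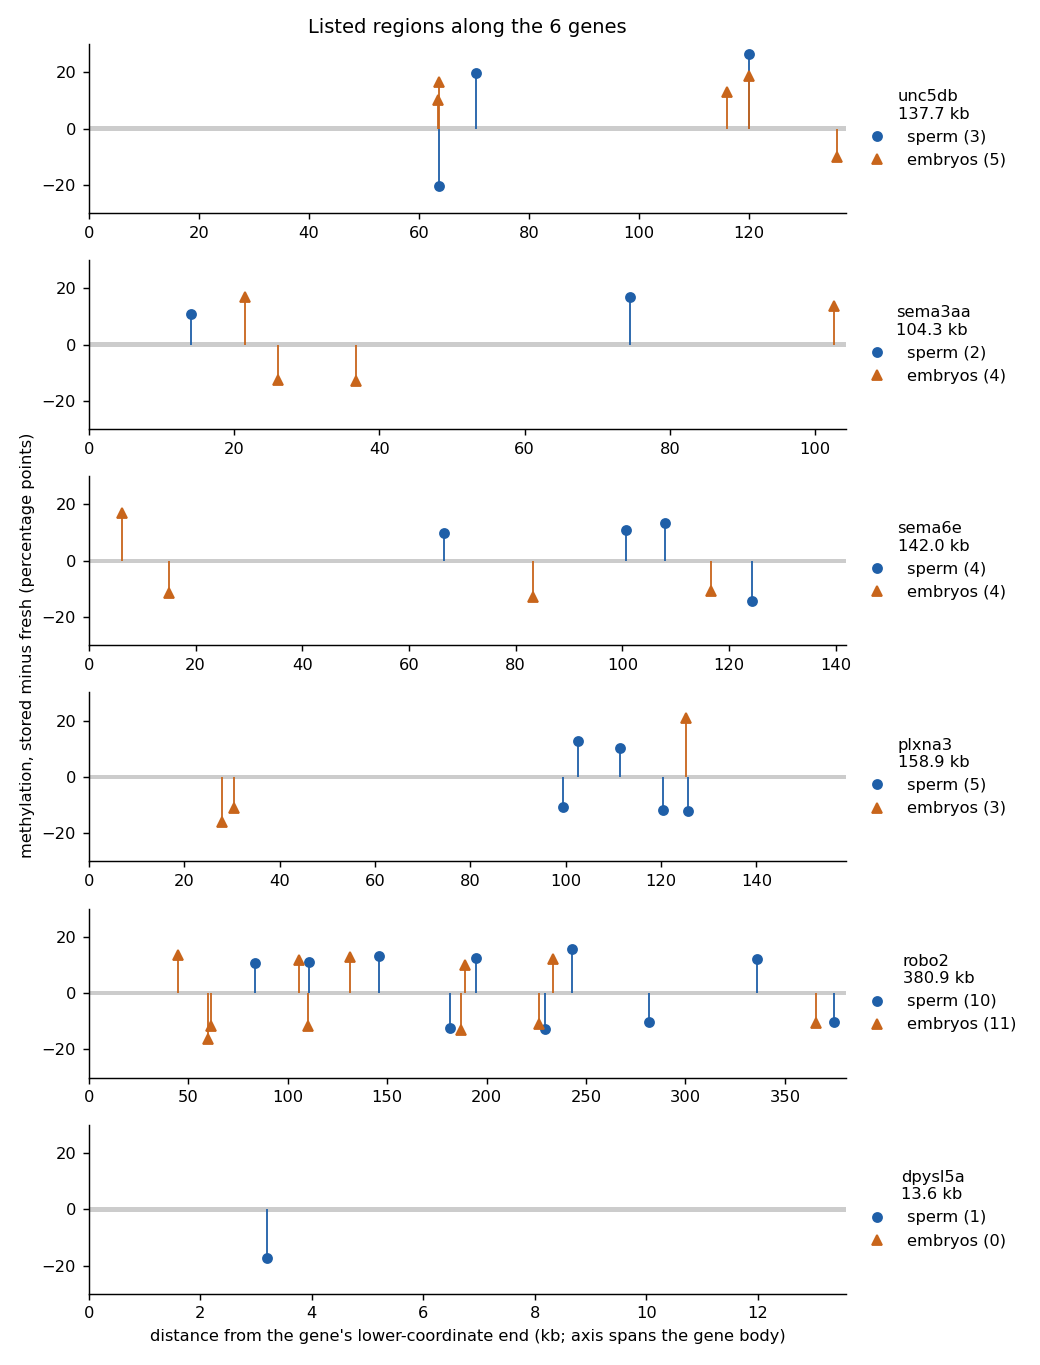
Position of each listed region along the 6 genes (x, distance in kb from the lower-coordinate end, each axis spanning 1 gene body) and the difference of group means, stored minus fresh, in percentage points (y). Blue circles are sperm regions and orange triangles embryo regions. The sperm regions of plxna3 fall in 1 stretch of the gene. In unc5db sperm and embryo symbols fall at nearly the same position along the gene at 2 places, with opposite directions at 1 of them.

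The netrin receptor gene unc5db, a member of the family that mediates repulsion from netrin, held the largest sperm difference of the 6 genes and the only places where sperm and embryo regions overlapped. It spans 6686462 to 6824196 on chromosome B5 (137.7 kb). At 6806431 to 6806507, 87.1% along the gene, 7 CpGs stood at 51.6% and 77.9% in sperm. The embryo list names the same 77 bp and 7 CpGs, with 48.1% and 66.7%. The stored group was thus higher in both tissues, and the difference between tissues, embryos minus sperm, was -3.51 points in the fresh and -11.2 points in the stored groups.

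A second place in unc5db, a stretch of 439 bp at 6749840 to 6750278 that is about 46% along the gene, was listed in the opposite sense. In sperm, 5 CpGs at 6750066 to 6750129 had 47.4% and 27.2%. In embryos, 7 CpGs at 6750065 to 6750278 had 29.7% and 46.1%, and an adjoining 10 CpGs at 6749840 to 6749910 had 29.6% and 39.7%. The level of embryos from fresh sperm was close to that of stored sperm here, and the level of embryos from stored sperm was close to that of fresh sperm, although the windows do not hold the same CpGs. All levels in this stretch lay between 27.2% and 47.4%, unlike the near-full levels of most regions of the 6 genes.

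Elsewhere in unc5db, 7 CpGs at 6756792 to 6756879 had 64.9% and 84.7% in sperm. Embryos had a higher region at 6802524 to 6802580 (82.3% and 95.3%, 7 CpGs) and a lower one of 5 CpGs at 6822532 to 6822556, 98.8% along the gene (96.6% and 86.4%). The gene thus held 2 higher and 1 lower region in sperm and 4 higher and 1 lower region in embryos. The midpoint of the first region of either list lay 63.4 kb into the gene.

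Among the ligand genes, sema3aa encodes a class 3 semaphorin, a secreted cue that collapses growth cones through neuropilin and plexin A receptors. It spans 9350841 to 9455160 on chromosome B4 (104.3 kb). Both of its sperm regions were higher in the stored group. They held 5 CpGs each, with 84.3% and 95.1% at 9364909 to 9365033 and with 81.9% and 98.7% at 9425268 to 9425463.

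Embryos had 4 regions in sema3aa, 2 in each direction and none overlapping a sperm region. Higher levels were listed at 9372284 to 9372340 (75.7% and 92.7%) and at 9453310 to 9453484, 98.3% along the gene (83.8% and 97.6%). Between them lay 2 lower regions, of 11 CpGs over 412 bp at 9376706 to 9377117 (93.1% and 80.8%) and of 5 CpGs at 9387567 to 9387612 (97.9% and 85.0%). Of the 4 embryo regions 3 therefore fell within the stretch from 20.6% to 35.2% of the gene, where neither of the 2 sperm regions lay. The stretch is bounded by these embryo regions themselves, so nothing is read from it.

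The second ligand gene, sema6e, encodes a class 6 semaphorin, a membrane-spanning cue of a class that binds A-type plexins. It spans 17311277 to 17453244 on chromosome B16 (142.0 kb) and carried the lowest levels of the 6 genes. In embryos, 11 CpGs at 17317487 to 17317573 stood at 6.82% in the fresh and 23.9% in the stored group. The midpoint of this region lay 6.25 kb from the lower-coordinate end, 4.40% along the gene, and no sperm region was listed there. Whether it lies near the start or the end of the transcript is not known without the strand.

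The other regions of sema6e were highly methylated, and their balance was unlike in sperm and embryos. In sperm 3 of 4 regions were higher in the stored group, with 86.8% and 96.8% at 17377818, 88.1% and 99.0% at 17411964, and 86.1% and 99.4% at 17419205. The fourth, 5 CpGs within 10 bp at 17435479 to 17435488, was lower, with 80.0% and 65.7%. In embryos the remaining 3 of 4 regions were lower, with 95.2% and 83.9% at 17326173, 96.8% and 83.8% at 17394304, and 98.1% and 87.4% at 17427935. No direction is drawn from 4 regions, and the difference between the tissues was not tested.

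Plexin A3, encoded by plxna3, is a semaphorin receptor that in zebrafish positions the exit points of motor axons from the spinal cord. The gene spans 5763412 to 5922287 on chromosome B8 (158.9 kb). Its 5 sperm regions all lay between 62.7% and 79.1% of the gene, with a median spacing of 7.02 kb. Higher levels were listed at 5866025 (81.9% and 94.7%) and at 5874740 (87.7% and 97.9%). Lower levels were listed at 5862916 (98.0% and 87.2%), at 5883671 (97.7% and 86.0%, 9 CpGs over 337 bp) and at 5888910 (76.0% and 63.9%). Both directions thus occurred within this stretch. The spacing of regions in other genes is not given here, so nothing is read from these positions.

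Embryo regions of plxna3 were 3. The greatest embryo difference of the 6 genes was at 5888569 to 5888629, where 5 CpGs had 63.9% and 84.8%. This window ended 280 bp before the sperm region at 5888910 to 5889230, which was lower in stored sperm, so adjoining windows were listed in opposite directions. The other embryo regions, at 5791272 (95.7% and 79.9%) and 5793816 (97.6% and 86.5%), lay 17.6% and 19.2% along the gene, far from any sperm region.

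The longest member, robo2, encodes a receptor for Slit proteins, whose loss in zebrafish misroutes retinal axons. It spans 24234369 to 24615299 on chromosome B15 (380.9 kb) and held 10 of the 25 sperm and 11 of the 27 embryo regions. That is 40.0% and 40.7% of the regions in 40.3% of the length searched. In sperm 6 regions were higher and 4 lower in the stored group, and in embryos 5 were higher and 6 lower.

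All but 1 of the robo2 regions in sperm lay between about 80% and full methylation. The exception was at 24477467 to 24477651, where 5 CpGs had 71.1% and 86.8%, the greatest sperm difference of the gene. The other higher regions were at 24318097 (84.8% and 95.7%, 9 CpGs), 24344853 (86.7% and 97.7%), 24380066 (80.0% and 93.1%), 24429228 (86.5% and 98.8%) and 24570074 (86.1% and 98.2%). The lower regions were at 24415942 (98.8% and 86.5%), 24463803 (99.3% and 86.5%), 24516051 (96.6% and 86.5%) and 24609198 (97.7% and 87.4%, 10 CpGs). Along the gene higher and lower sperm regions were interspersed, from 22.0% to 98.4% of its length.

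The embryo regions of robo2 were of the same kind. Lower levels were listed at 24294257 (94.6% and 78.2%, 8 CpGs), which was the greatest embryo difference of the gene, and close by at 24295504 (99.2% and 87.6%). Further lower regions were at 24344406 (98.0% and 86.2%), 24421401 (97.3% and 84.3%), 24460698 (99.7% and 88.9%) and 24599970 (92.8% and 82.3%). Higher regions were at 24279099 (82.1% and 95.5%), 24339812 (86.4% and 98.1%), 24365688 (83.4% and 96.3%), 24423303 (87.5% and 97.6%) and 24467579 (85.2% and 97.3%). None overlapped a sperm region, and no embryo region was listed between the last 2, at 24467579 and 24599970, whose midpoints lie 132.4 kb apart and between which sperm had 3 regions.

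The effector gene dpysl5a encodes a cytoplasmic phosphoprotein of the collapsin response mediator family. It is by far the shortest member (18758719 to 18772306 on chromosome B17, 13.6 kb). Its only region was in sperm, where 5 CpGs at 18761887 to 18761927, 23.5% along the gene, had 93.3% and 75.9%. No embryo region was listed in it, which says only that no window passed the threshold.

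Both overlapping pairs lay in unc5db, so 2 of 25 sperm regions (8.0%) and 2 of 27 embryo regions (7.4%) overlapped a region of the other list, beside 7.74% of all placed sperm and 8.11% of all placed embryo regions. The directions were the same in 1 pair and opposite in the other. The split of directions over all placed regions is not given here, so nothing is read from the directions of these or the following pairs. With gaps of up to 500 bp there were 5 pairs, of which 1 was in the same direction, and with gaps of up to 5 kb 10 pairs, of which 4 were. A region can enter more than 1 pair, as the unc5db sperm region at 6750066 did within 500 bp, so the pairs are not separate. The 500 bp pairs included robo2, where a sperm region with 86.7% and 97.7% at 24344853 lay 347 bp beyond an embryo region with 98.0% and 86.2%. For the 24 sperm regions in genes that also had embryo regions, the nearest embryo region had the same direction in 14 and the opposite one in 10.

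**Figure D3:**
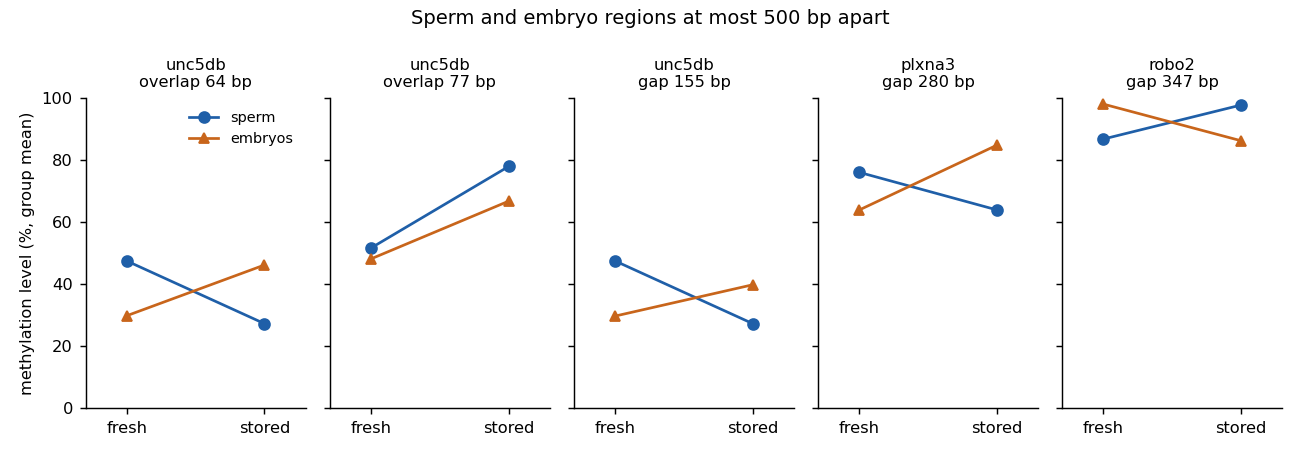
Group mean methylation (%) in the 5 pairs of sperm and embryo regions of the 6 genes that overlapped or lay at most 500 bp apart. Blue circles are sperm and orange triangles embryos, each in the fresh and the stored group. Lines cross in 4 pairs and run together in the unc5db pair with a 77 bp overlap, where the same window was listed for both tissues. Both other unc5db pairs show the same sperm region.

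The number of regions in a gene depends on its length, and each member was therefore set beside all genes within 10% of its length, with densities counted over the body and both flanks. In sperm 5 of 6 members lay between the quartiles of their like-length genes, and in embryos 4 of 6. For the netrin receptor unc5db the density was 2.15 regions per 100 kb in sperm, near the median of 2.30 over 312 like-length genes (quartiles 1.41 and 3.40). In embryos it was 3.58, above the upper quartile of 3.04, and 16.3% of like-length genes were as dense or denser. The ligand sema3aa had 1.88 per 100 kb in sperm beside a median of 2.03 over 418 genes, and 3.76 in embryos, where the upper quartile was 3.03 and 18.9% of like-length genes reached its value. Both genes thus ranked higher by embryo than by sperm density.

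The other long members were closer to the middle of the range. In sema6e the density was 2.78 per 100 kb in each list, and 40.1% of 284 like-length genes in sperm and 34.2% in embryos were as dense or denser. In plxna3 it was 3.11 in sperm (28.2% of 206 genes as dense or denser) and 1.86 in embryos (58.3%), an order of the tissues opposite to that of unc5db and sema3aa. In robo2 it was 2.61 in sperm and 2.87 in embryos, beside medians of 2.55 and 2.30 over 31 genes of like length, all of which held regions in both lists. The short gene dpysl5a had a sperm density of 6.42 from a single region, and 27.7% of its 2920 like-length genes held at least 1 sperm region. These ranks are descriptions, since the genes were chosen for holding regions, and a rank at the dense end of the range would come about in part through that choice.

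**Figure D4:**
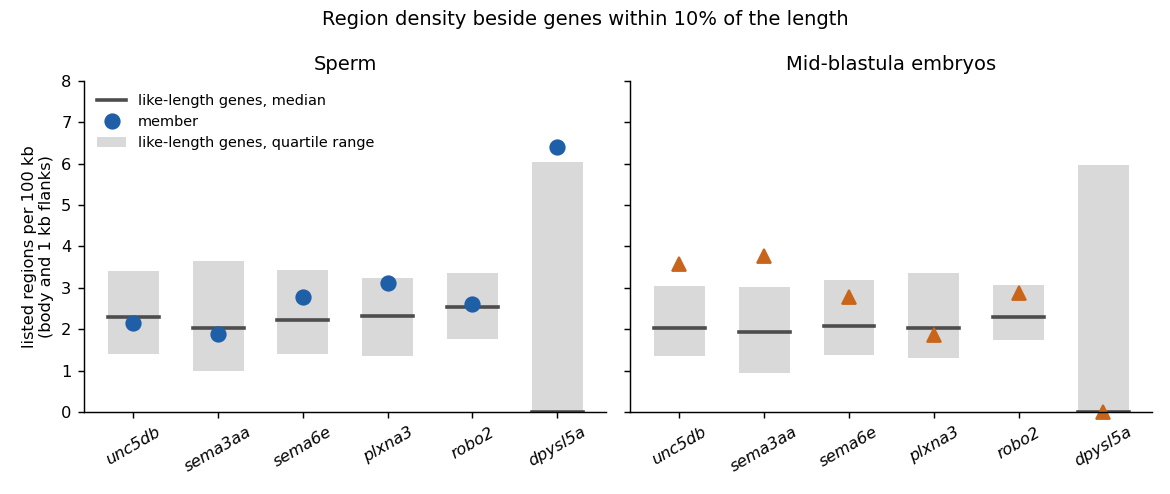
Listed regions per 100 kb of gene body and 1 kb flanks for each of the 6 genes (symbols) beside genes within 10% of its length (grey bars, lower to upper quartile; dark line, median). In sperm (left) dpysl5a alone stands above its bar, with 1 region, and in embryos (right) unc5db and sema3aa do.

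Regions were also counted outside each gene. In the 500 kb on either side of unc5db there were 2.40 sperm and 1.80 embryo regions per 100 kb, beside 2.15 and 3.58 in the gene. Around sema3aa the densities were 3.10 and 2.50, beside 1.88 and 3.76, and around plxna3 1.70 and 2.50, beside 3.11 and 1.86. In these 3 genes the list with more regions in the gene was the one with fewer regions around it. Around robo2 the densities were 3.20 in each list, around sema6e 2.80 and 1.80, and around dpysl5a 2.30 and 1.90. In dpysl5a the order went the other way, with more sperm regions both in the gene (1 against 0) and around it. The 2 lists were equal in density within sema6e and around robo2. Few regions underlie each order, so no pattern is drawn from them.

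Genes that held the same 4 counts of higher and lower sperm and embryo regions at a length within 10% were rare for the long members. A match of all 4 counts is less likely the more regions a gene holds. The sets compared also differ in size (31 genes for robo2, 2920 for dpysl5a), so nothing is read from this. There were 0 for unc5db, sema3aa and robo2 and 1 without a gene symbol for sema6e. For plxna3 the only one was tanc1b (164.5 kb, chromosome B9). For dpysl5a there were 152, of which haspin, vps35l and srrt were the nearest in length among those with a symbol.

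The 6 genes were also placed within a wider list of axon guidance genes. Of 149 names written from zebrafish nomenclature, 68 matched a gene symbol on the 50 chromosomes. The other 81 did not, so the shares below cover only part of the carp's axon guidance genes. Of the 68, 15 lay on A and 53 on B chromosomes, and all 6 members lay on B chromosomes. The same split over all placed genes is not given here, so nothing is read from it. In sperm 45 of the 68 (66.2%) held a region, and the mean share among genes of like length was 62.2%. In embryos 43 held one (63.2% against 60.0%). These shares, and the shares by role below, include the 6 members, which were chosen on these lists. Without the members, 39 of 62 genes held a sperm region (62.9% against 60.1%) and 38 an embryo region (61.3% against 57.8%). Higher sperm regions were present in 38 of the 68 genes (55.9%, against 50.9% of like-length genes and 18.7% of all placed genes) and lower ones in 25 (36.8%, against 34.5% and 11.9%). In embryos higher regions were present in 27 genes (39.7%, against 41.7% and 14.8%) and lower ones in 30 (44.1%, against 42.1% and 14.7%). Regions of both lists occurred in 31 genes (45.6%, against 45.1% and 12.6%). Neither list had a region in 11 genes (16.2%, against 22.9% and 63.3%), a lower share than in genes of like length, which was not tested. None of these 11 could be a member, since all 6 members were chosen for holding regions. The shares by direction and in both lists were thus near those of genes of like length. The list held 68 higher and 33 lower sperm regions (67.3% higher, against 62.3% of all placed sperm regions), of which 53 and 23 lay outside the 6 members. It held 42 higher and 44 lower embryo regions (48.8% higher, against 50.4%).

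**Figure D5:**
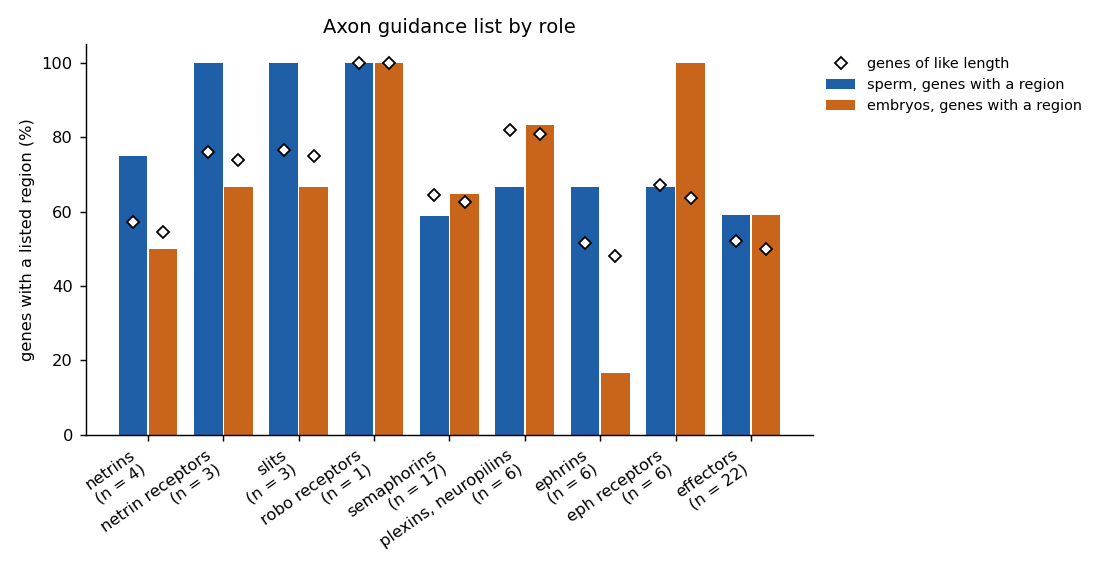
Share of genes with at least 1 listed region (%) in the 68 axon guidance genes by role, for sperm (blue) and embryos (orange), with the number of genes of each role in brackets. Diamonds show the mean share among genes within 10% of each gene's length. Most roles hold 6 genes or fewer, so a single gene moves a bar by much. The 6 members, chosen on the same lists, are included.

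Among the genes grouped here as netrins and netrin receptors, ntng1a, which encodes a membrane-anchored netrin-G, held 5 regions in each list. Of genes of like length, 8.60% in sperm and 7.48% in embryos were as dense or denser than ntng1a. At 17727155 on B24 it had 88.9% and 71.1% in sperm over 9 CpGs, and 64.8% and 83.5% in embryos over 5 CpGs of that stretch. Its greatest sperm gain was from 83.6% to 98.4%, and its greatest embryo loss from 99.6% to 86.2%. The co-receptor gene cdon, grouped here with the netrin receptors, had 83.1% and 97.5% in sperm and, at another site, 78.8% and 92.6% in embryos. All 3 receptor genes of this branch that matched (cdon, unc5b and unc5db) held a sperm region and 2 an embryo region, where 76.0% and 73.9% of genes of like length did. Of these, unc5db was chosen on the same lists.

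Among Slit genes, which encode the ligands of Robo receptors, a difference of at least 20 points was listed in slit1b in sperm and in slit3 in embryos. No gene of this role had one in both tissues. In the whole list 2 genes in sperm (with unc5db) and 3 in embryos (with plxna3 and crmp1) held such a difference. The share of all placed genes that did is not given here, so nothing is read from these counts. In slit1b 7 CpGs at 18273984 to 18274014 on A22 had 40.2% and 14.7% in sperm. In slit3, 14 CpGs at 26240054 to 26240105 on A14 had 43.7% and 57.0% in sperm, whereas 5 CpGs within that stretch had 63.3% and 31.5% in embryos. The largest embryo gain of this group was also in slit3, from 83.4% to 99.4% at another site. All 3 matched slit genes held sperm regions and 2 of 3 embryo regions, where 76.5% and 75.01% of genes of like length did.

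Of 17 semaphorin genes 10 held a sperm region (58.8%, against 64.5% of genes of like length) and 11 an embryo region (64.7% against 62.4%). Of 6 plexin and neuropilin genes 4 held a sperm region (66.7% against 81.9%) and 5 an embryo region (83.3% against 80.9%). The largest semaphorin differences beyond the members were in sema3bl (74.5% and 92.0%) and sema6a (75.5% and 60.2%) in sperm, and in sema6a (70.7% and 90.6%) and sema4ab (83.9% and 71.4%) in embryos. Among the receptors they were in the flank of nrp1a (83.9% and 97.5%) and in plxna1a (98.1% and 85.3%) in sperm, and in plxnd1 (82.2% and 95.8%) and plxnb1b (94.8% and 82.0%) in embryos. They were picked as the greatest gain and loss per role and tissue, so they are not compared with the typical regions of the 6 genes.

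Ephrins and their Eph receptors signal between touching cells. A sperm region was present in 4 of 6 ephrin genes and an embryo region in 1, efna5a (97.9% and 85.8%), where 51.5% and 48.1% of genes of like length held one. In Eph receptor genes the counts were 4 of 6 and 6 of 6, beside 67.1% and 63.6% of genes of like length. Of the 6 embryo regions of Eph receptor genes 1 was higher in the stored group, beside 50.4% of all placed embryo regions. Examples were efnb2a (84.0% and 98.9%), efna5a (97.8% and 86.5%), epha7 (85.1% and 98.5%) and ephb6 (74.9% and 60.9%, 18 CpGs) in sperm, and ephb6 (81.3% and 94.5%) and ephb4a (98.9% and 86.8%) in embryos. The groups are small and their difference was not tested.

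Of 22 effector genes 13 held a region in sperm and 13 in embryos (59.1% in each, against 52.0% and 49.9% of genes of like length), with 8 in both (36.4% against 33.7%). The collapsin response mediator gene crmp1, a relative of dpysl5a, held 3 regions in each list within 16.8 kb. Of genes of like length, 1.52% in sperm and 1.29% in embryos were as dense or denser than crmp1, which was not tested. The largest embryo gain of crmp1 was from 40.6% to 68.1% and its largest sperm loss from 82.8% to 68.0%. The guanine nucleotide exchange factor gene trioa had 76.7% and 96.3% in sperm and 92.7% and 77.4% in embryos at another site.

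Over the whole list sperm and embryo regions overlapped in 6 pairs in 5 genes. These were 5.94% of the 101 sperm and 6.98% of the 86 embryo regions, beside 7.74% and 8.11% of all placed regions. Besides the pairs of unc5db they lay in ntng1a, slit3, sema5a and the adaptor gene nck2b, and the direction was the same in 2 pairs and opposite in 4. The split of directions over all placed overlapping regions is not given here, so nothing is read from this one. In sema5a both tissues were higher in the stored group, with 77.2% and 92.7% in sperm and 74.1% and 93.7% in embryos. In nck2b a sperm region of 52 CpGs had 72.2% and 60.4%, and an overlapping embryo region of 14 CpGs had 57.7% and 71.0%. Sema5a and nck2b were named because they complete this short set, after their values were seen.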

How the data were processed

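The processed files were 2 lists of differentially methylated CpG regions, 1 for sperm and 1 for mid-blastula embryos. According to the study's methods, the authors mapped cleaned reads with BSMAP, whose version the sources used here do not give, removed duplicates, merged mappings per library and called windows with at least 5 CpGs, a 2-fold change and a Fisher test p-value below 0.05. The authors deposited the methylation level of each region as a fraction, the mean of a group of 3 libraries, which is printed here as a percentage. The deposited p-value and the deposited signed difference, a score here, are the authors' own comparisons and served only to check the thresholds of the lists and the sign; differences were computed here as stored minus fresh. Depth per region is unknown.

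The accessions of the 50 chromosomes were put in order and named A1 to A25 and B1 to B25. For the 6 chromosomes that hold members, the assignment with the least gap between chromosome ends was the same, with gaps of 1.81 to 120.2 kb. Over all 50 chromosomes it was the same for 46 and differed for A8, A19, A20 and B24. The naming is less certain there, which among the genes named above covers sema6a (A8), ntng1a and sema5a (both B24). A region belonged to a gene if it touched the body or a 1 kb flank by at least 1 bp. Unplaced sequence, with 3143 sperm and 3059 embryo regions, was left out. Like-length genes were all gene types within 10% of the length. Other genes are named as the greatest gain and loss per role and tissue. The members, the list of 149 names and these rules were chosen with earlier results of these data known. Counting was tested on simulated data. Python 3.11.15, pandas 2.3.3, NumPy 2.4.6, SciPy 1.17.1 and Matplotlib 3.10.9 were used.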

Additional observations from a re-analysis of the deposited data

How the results depend on the processing

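Counts over the 6 genes depended on the thresholds of the lists and not on the flank. With gene bodies alone 25 sperm and 27 embryo regions were found, and with 5 kb flanks 26 and 27. A difference of at least 15 points left 6 sperm and 7 embryo regions, and of at least 20 points 2 and 1. At least 7 CpGs left 6 and 15 regions, and at least 10 CpGs 1 and 3. The share of higher regions, 60.0% in sperm, was 66.7% at 15 points and 50.0% at 20 points. It was 50.0% at 7 CpGs and 0.0% at 10 CpGs (1 region). In embryos, 48.1% became 71.4% at 15 points (7 regions) and 100% at 20 points (1 region). It became 40.0% at 7 CpGs (15 regions) and 66.7% at 10 CpGs (3 regions). Shares over all placed regions at these settings are not given here, so nothing is read from these moves. Close pairs of sperm and embryo regions increased from 2 to 5 and 10 with gaps of 500 bp and 5 kb, some regions entering more than 1 pair. Of the 68 listed genes, 2 in sperm and 3 in embryos held a region at 20 points, and the share of all placed genes that did is not given here. Ranks among like-length genes moved little in the 33 alternatives (25% of the length, the 200 nearest genes, protein-coding genes alone). These leave out dpysl5a in embryos, whose 0 regions fix its rank. The greatest move was that of robo2 in embryos, from 32.3% of genes as dense or denser to 25.5% with the 200 nearest genes. The alternatives share many of their comparison genes, so small moves were likely beforehand. Leaving out replicates was not possible with group means. No paired analysis was possible because the lists hold 1 mean per group and no value per library, although the groups share their males. Unknown depth limits every level.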

Other observations

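A gene beside dpysl5a and a gene beside unc5db held regions of their own. Genes next to sema3aa, sema6e and plxna3 also held regions, so this is not particular to them. Those next to robo2 and the pseudogene on the other side of unc5db held none. Of all placed genes, 25.3% held a sperm region and 24.0% an embryo region. The de novo DNA methyltransferase gene dnmt3ab (18776289 to 18830480 on B17, 54.2 kb) starts 3.98 kb beyond dpysl5a. In sperm it held a lower region at 18786903 (94.97% in the fresh and 82.3% in the stored group) and a higher one at 18824072 (83.9% and 95.3%). In embryos it held higher regions at 18778843 (87.3% and 98.5%) and 18813624 (82.9% and 94.0%) and lower ones at 18820051 (98.2% and 86.1%) and 18823521 (98.4% and 82.9%). Sperm and embryo regions did not overlap there, and the sperm and embryo regions closest to each other, at 18824072 and 18823521, were listed in opposite directions. No region was listed in mapre3a, which ends 0.585 kb before dpysl5a.

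The gene hdr (6827537 to 6833981 on B5, 6.45 kb), 3.34 kb beyond unc5db, held lower sperm regions at 6828987 (26.8% and 12.2%) and 6831485 (93.9% and 77.7%). Its embryo region at 6829431 was higher (49.6% and 68.4%). It is the nearest neighbour of unc5db on that side, and was singled out after its values were seen, as was dnmt3ab.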
